A study of Arabidopsis thaliana with 11 samples.

Results

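One-week-old Arabidopsis thaliana seedlings that carried a knockout of the receptor gene PSY1R and had received the PSY1 peptide were compared with wild-type seedlings given the same peptide. The comparison used 5 of the 11 one-colour expression arrays of the series, chosen by their titles. The psy1r + PSY1 group was the psy1r knockout treated with 10 nM PSY1 for 4 h, with 2 arrays analysed here, replicates 1 and 3, while replicate 2 of this group was not analysed here. The WT + PSY1 group was the wild type, ecotype Columbia-0 by the study's methods, under the same dose and time, with 3 arrays. Untreated psy1r and untreated WT seedlings, with 3 arrays each, were no part of the comparison but entered the same fit, where they share in the estimate of the spread. Every group was grown as whole seedlings in flasks of shaken liquid medium with sucrose under continuous light, so each array pools many seedlings and all their organs. The knockout is a single line, and the allele behind it is not given in the sources used here. The titles of both psy1r + PSY1 arrays write psy1 for the genotype, while the genotype field of these samples gives a psy1r knockout. The question behind the comparison is which transcripts differ with the receptor when the peptide is present in both genotypes.

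PSY1 is a secreted peptide that carries a sulfated tyrosine and promotes cell expansion and proliferation. Its precursor is a small protein from which the mature glycopeptide is cut, and TPST is the enzyme that sulfates the tyrosine. PSY1R is a leucine-rich repeat receptor kinase of the plasma membrane, related to the receptors PSKR1 and PSKR2 of the sulfated peptide phytosulfokine, and it is known to act on plasma membrane proton pumps such as AHA1 and AHA2, which acidify the wall of expanding cells.

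Signals are given as log2 of the processed spot intensity relative to the 75th percentile of its array, called relative signal here, so that 0 is the level of a fairly bright probe and one unit is a 2-fold step. The arrays had 72.3 to 81.7% of spots well above background and 0 saturated spots. Replicate numbers coincide with the 3 slides, and the position of an array on its slide coincides with its group, so position and group cannot be told apart. The 3 WT + PSY1 arrays lay very close to each other, with median absolute differences of 0.068 to 0.092 on the log2 scale between pairs, against 0.071 to 0.076 between repeat spots of one probe within these arrays. The 2 psy1r + PSY1 arrays differed by a median of 0.32. Replicates 1 and 2 of untreated psy1r and of untreated WT were also close, at 0.085 and 0.070. The study describes the replicates as independent, but p-values measure the spread between these arrays, which may be technical for the close ones, and for that reason the value of each array is given instead of a mean with an SD. Replicate 3 of psy1r + PSY1 carried high signals of seed storage genes, whose summed signal on the log2 scale was 4.77 there and -1.60 in replicate 1, against -1.05, -0.84 and -0.82 in WT + PSY1 and -1.46 to 0.61 in the 6 untreated arrays. The part of seed transcripts in the differences below was not tested. Values without replicate 3 are given for some genes, but that fit holds 1 psy1r + PSY1 array. It therefore cannot separate a loss of seed transcripts from a loss of precision.

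A total of 35051 probes had a signal well above background on 2 or more of the 5 arrays, which was the condition for testing, and they represent 21328 annotated loci. Between psy1r + PSY1 and WT + PSY1, 393 probes passed a Benjamini-Hochberg adjusted p of 0.05 in limma with a change of more than 2-fold, which is 1.12% of the probes tested. Of these, 155 were higher in psy1r + PSY1, or 0.442%, and 238 were lower, or 0.679%. The calls represent 290 loci, and 87 of the probes could not be tied to a locus. For all 393 the psy1r + PSY1 arrays lay outside the range of the WT + PSY1 arrays, a condition that 47.5% of all tested probes also met. A fit with the slide as a replicate block called 143 probes, 130 of them among the 393. In an alternative chosen after seeing the data, arrays about as close as repeat spots were averaged and counted as 1 sample. There limma called 0 probes, with a smallest adjusted p of 0.196, and 1212 probes had an unadjusted p below 0.05. That alternative also averaged replicates 1 and 2 of each untreated group, so the share of the WT + PSY1 arrays in the loss was not tested. Leaving out WT + PSY1 replicate 1, 2 or 3 left 61, 50 or 56 calls, and leaving out psy1r + PSY1 replicate 1 or 3 gave 1042 or 234. Through the shared spread, the untreated arrays mattered as well, with 183 to 839 calls leaving out an untreated WT array and 238 to 1053 leaving out an untreated psy1r array.

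The receptor transcript itself was strongly lower in the knockout. PSY1R (AT1G72300) read -7.55 and -4.76 in psy1r + PSY1 replicates 1 and 3, against -1.51, -1.72 and -1.48 in WT + PSY1. The groups were far apart, and the replicate 1 spot was not well above background while the replicate 3 spot was. The log2 fold change was -4.58 ± 0.81 (SE, n = 2 and 3 arrays), with an adjusted p of 0.0315 in limma and 0.0746 with the replicate block. Within slide 1 the difference was -6.04, against a spot not well above background, and within slide 3 it was -3.27. With that spot set to the lowest signal well above background on its array, replicate 1 alone was at least 27.1-fold lower. Untreated seedlings showed the same direction, with -6.60, -6.54 and -8.58 in psy1r against -1.25, -1.22 and -1.89 in WT. Where the probe lies relative to the disrupted part of the gene is not given in the sources used here. Leaving out any of the WT + PSY1 arrays ended the call, with adjusted p of 0.113 to 0.119, as did leaving out replicate 1 or 2 of either untreated group, with 0.0509 to 0.061. With close arrays averaged, PSY1R was not called either, so that setting does not call the targeted gene.

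Among the other genes of sulfated peptide signalling, none passed the test. The list held 15 genes, all tested, and PSY1R was the only call, against 1.13% of all loci, with a median log2 fold change of 0.0047 over the list and -0.0057 over all tested loci. The PSY1 precursor gene read -0.43 and 0.10 in psy1r + PSY1, against 0.36, 0.10 and 0.27 in WT + PSY1, and these ranges overlapped (log2 fold change -0.41 ± 0.25, adjusted p = 0.394). Of the phytosulfokine precursors, PSK1 read -2.53 and -1.70 in psy1r + PSY1 and between -1.02 and -0.93 in WT + PSY1, and PSK5 read 1.28 and 0.51 against -0.29 to -0.23. Neither passed the test, at adjusted p of 0.0772 and 0.0861 in limma. The proton pump genes AHA1 and AHA2 had log2 fold changes of 0.18 and 0.0047, and TPST had 0.00088.

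The 10 largest higher signals that both psy1r + PSY1 arrays shared were picked by fitted fold change, which gives no order among genes whose WT + PSY1 spots were not well above background. They came from a seed protein gene, several loci without an assigned function in the sources used here, and a pair of enzyme genes. GEA6, which encodes a late embryogenesis abundant protein of maturing seeds, read -4.24 and 0.53 in psy1r + PSY1, against -7.30, -7.07 and -7.26 in WT + PSY1. None of the WT + PSY1 spots was well above background, so the difference is a bound, at least 39.1-fold higher (adjusted p = 0.0431). For such bounds the dim group was set, array by array, to the lowest signal of any probe well above background, unless its own signal was higher. Genes given as bounds between these groups entered the test through their bright group alone. Among the higher ones, both psy1r + PSY1 arrays being bright was thus a condition of testing. The adjusted p of such genes rests on signals not well above background in the dim group. The higher of the GEA6 signals in psy1r + PSY1 came from replicate 3, the array with the high seed transcripts, and by replicate 1 alone the bound was 7.48-fold. In untreated seedlings GEA6 read -2.48 to -2.04 in psy1r and -6.35 to -5.60 in WT. AT5G45120 read -4.84 and -3.34 in psy1r + PSY1, against -8.83, -9.42 and -8.96 in WT + PSY1, which is at least 10.1-fold higher (adjusted p = 0.00401), or 5.98-fold by replicate 1 alone. AT1G33940 read -4.32 and -3.09 in psy1r + PSY1, against -7.69, -9.70 and -9.39, or at least 13.1-fold higher, and by replicate 1 alone 8.55-fold without a call (adjusted p = 0.0784). Neither locus was well above background on any of the 6 untreated arrays. AT4G09210 behaved in the same way, at -5.68 and -5.45 in psy1r + PSY1 against -9.14, -9.90 and -9.44 in WT + PSY1, at least 3.61-fold higher, and was likewise not well above background on any untreated array.

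CYP82C2, a cytochrome P450 of indolic defence compounds, read -5.64 and -5.99 in psy1r + PSY1, against -9.01, -9.56 and -8.95 in WT + PSY1. The groups were well separated, and the difference was at least 3.03-fold (adjusted p = 0.000622). In untreated seedlings it was well above background on 1 of 3 psy1r arrays and on no WT array, and was at least 1.26-fold higher in psy1r (adjusted p = 0.00468). UGT76E12, a glucosyltransferase gene, read -2.27 and -3.26 in psy1r + PSY1, against -6.32, -6.69 and -5.66, a log2 fold change of 3.46 ± 0.69 (adjusted p = 0.0441). MPC, a maternally expressed gene with the C-terminal domain of poly(A)-binding proteins, read -3.02 and -3.09 in psy1r + PSY1, against -6.78, -6.49 and -6.52 in WT + PSY1. Its 2 psy1r + PSY1 arrays were nearly equal, and it was 11.7-fold higher (adjusted p = 0.00286). AT3G19920, not well above background in WT + PSY1, was at least 4.32-fold higher, and AT2G28710 and AT5G47330 completed the 10, with log2 fold changes of 3.27 and 2.87. AT2G28710 had the opposite sign in untreated seedlings, at -1.14, which did not pass the test (adjusted p = 0.272). With the replicate block, GEA6, UGT76E12 and AT5G47330 lost their calls (adjusted p of 0.0657, 0.0905 and 0.051). Without replicate 3, 5 of the 10 were called, and AT1G33940, UGT76E12, AT3G19920, AT2G28710 and AT5G47330 were not.

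**Figure D1:**
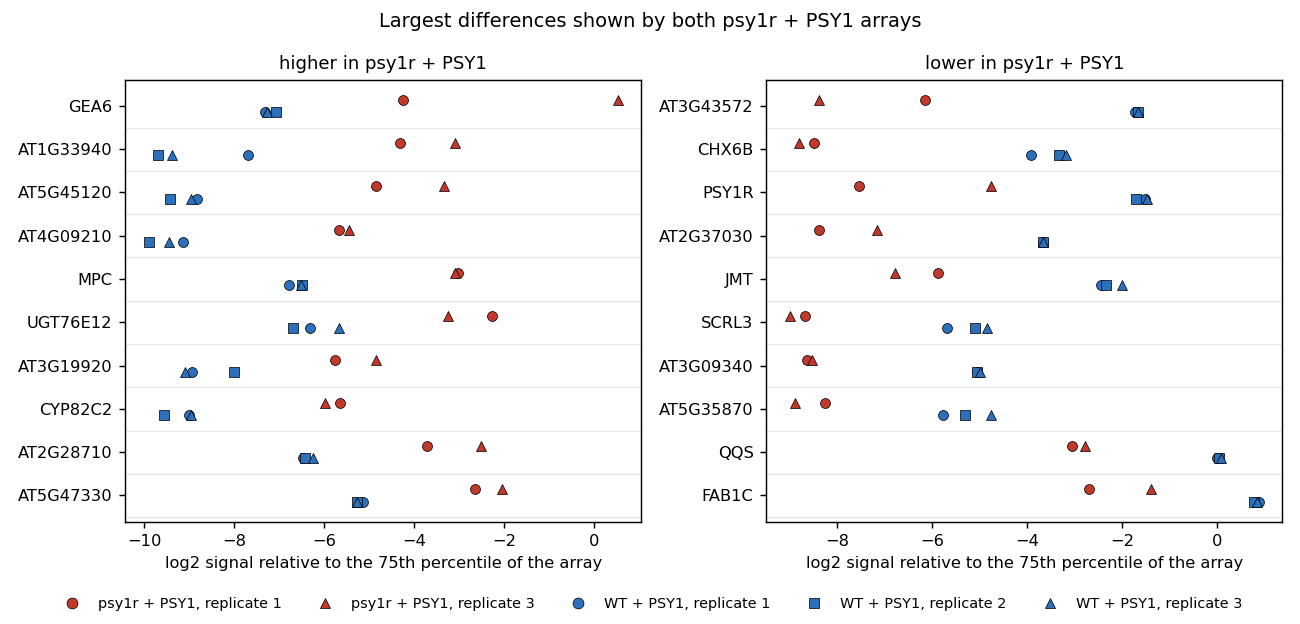
Relative signal (log2, horizontal axes) of the 10 genes with the largest fitted higher (left) and lower (right) signals that both psy1r + PSY1 arrays shared, red for psy1r + PSY1 and blue for WT + PSY1, one symbol per array and replicates by shape. In every row the red symbols stand apart from the blue ones, and for GEA6 the 2 red symbols are far from each other at -4.24 and 0.53.

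PSY1R was among the 10 largest lower signals that both psy1r + PSY1 arrays shared, picked by fitted fold change in the same way. AT3G43572 read -6.15 and -8.39 in psy1r + PSY1, against -1.74, -1.67 and -1.67 in WT + PSY1, and was at least 26.8-fold lower (adjusted p = 0.0245). CHX6B, of the cation/proton exchanger family, read -8.49 and -8.80 against -3.93, -3.34 and -3.19, at least 8.23-fold lower (adjusted p = 0.0376). Its untreated arrays were scattered, at -6.47 to -2.60 in psy1r and -5.32 to -3.38 in WT, and overlapped. AT2G37030, listed with the synonym SAUR46 of the small auxin-up RNA family, read -8.39 and -7.16 in psy1r + PSY1, against -3.67, -3.68 and -3.67, at least 7.23-fold lower (adjusted p = 0.00917). This gene was as low in untreated psy1r, at -8.65, -8.14 and -8.16, against -3.24, -3.44 and -4.80 in untreated WT.

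JMT and SCRL3 had their highest signals in WT + PSY1 among the 4 groups. JMT, which encodes the enzyme that methylates jasmonic acid, read -5.88 and -6.78 in psy1r + PSY1, against -2.44, -2.34 and -2.00 in WT + PSY1, while untreated seedlings gave -7.46 to -4.43 in psy1r and -7.40 to -6.11 in WT. The log2 fold change was -4.07 ± 0.82 (adjusted p = 0.0451 in limma). It is a fitted value, since the psy1r + PSY1 replicate 3 spot of JMT was not well above background. The dimmer JMT probe was not called, at 0.038. SCRL3, one of the cysteine-rich peptides related to the S-locus pollen protein, read -8.68 and -9.0 in psy1r + PSY1, against -5.68, -5.10 and -4.84 in WT + PSY1, at least 2.49-fold lower (adjusted p = 0.0213), and was not well above background on any of the 6 untreated arrays. For neither gene did the difference between the genotype effects with and without PSY1 pass the test (adjusted p = 0.243 for JMT and 0.112 for SCRL3).

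QQS, a gene that influences starch content, and FAB1C, which encodes a phosphoinositide kinase, also belonged to these 10, and both were well above background on all 5 arrays. QQS read -3.06 and -2.78 in psy1r + PSY1, against -0.0020, 0.044 and 0.083 in WT + PSY1, a log2 fold change of -2.96 ± 0.44 (adjusted p = 0.0216). FAB1C read -2.71 and -1.39 in psy1r + PSY1, against 0.88, 0.78 and 0.83, with a log2 fold change of -2.88 ± 0.31 (adjusted p = 0.0078), although its dimmer probe was not called at -0.53. Both genes were also lower in untreated psy1r. AT3G09340 and AT5G35870 were the remaining members, at least 2.81-fold and 2.37-fold lower, since neither was well above background in psy1r + PSY1. With the replicate block, 4 of the 10 were called, AT2G37030, SCRL3, QQS and FAB1C, while the adjusted p was 0.0572 for AT3G43572, 0.0594 for CHX6B, 0.0711 for JMT, 0.051 for AT3G09340 and 0.0502 for AT5G35870. Without replicate 3, PSY1R, AT2G37030 and FAB1C were the 3 that were called.

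Calls depended on single arrays, and 39 probes were called in each of the 11 fits that left out 1 array and also with the replicate block. Of these, 24 were higher and 15 lower, and they represent 28 loci with 10 probes left without one. The genes named from this set here were chosen after their values were seen. The defence kinase gene MPK11 read -1.09 and -1.02 in psy1r + PSY1, against -2.27, -2.29 and -2.17 in WT + PSY1, 2.28-fold higher (adjusted p = 0.00286). WRKY6, a transcription factor gene of senescence and defence, had 1 of its 2 probes in the set, at -1.76 and -1.97 against -3.19, -2.93 and -3.15, 2.34-fold higher, while its brighter probe was not called at a log2 fold change of 1.03. LOX3, a lipoxygenase of jasmonate synthesis, had 2 of its 4 probes in the set, with log2 fold changes of 1.36 and 1.90, and its brightest probe had 1.41 with an adjusted p of 0.279.

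The lower members of this set included a gene of organ growth, a clock gene and a defensin. ORS1 (AT2G41230), listed with the synonym ORGAN SIZE RELATED 1, read 0.45 and 0.93 in psy1r + PSY1, against 2.23, 2.32 and 2.27 in WT + PSY1, 2.99-fold lower (adjusted p = 0.00721). EPR1, a clock-associated MYB gene, read -1.21 and -1.32 against -0.17, -0.22 and -0.08, 2.16-fold lower, and PDF1.5, a plant defensin, read -2.50 and -2.51 against -1.15, -1.09 and -1.07, 2.64-fold lower. HEI10, a crossover protein gene of meiosis, and MRD1, whose annotated loci overlap, were both in the set. Whether their probes report separate transcripts was not tested. MRD1 read -2.30 and -1.68 in psy1r + PSY1, against 0.61, 0.73 and 0.64, and it was as low in untreated psy1r, at -2.27 to -1.77, against 0.92 to 1.05 in WT. HEI10 was at least 3.23-fold lower by one probe (adjusted p = 0.00253), and its brighter probe, at -0.69, was not called. The largest difference of the set among probes well above background on all 5 arrays belonged to the unannotated probe A_84_P786320, which read 0.41 and 0.03 in psy1r + PSY1, against -4.47, -4.33 and -4.52 in WT + PSY1, 25.3-fold higher (adjusted p = 4.25e-05). None of the 39 was called with close arrays averaged.

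The 2 psy1r + PSY1 arrays were also set singly against the mean of WT + PSY1. Of the 35051 probes, replicate 1 lay more than 2-fold above that mean for 1092 and below it for 2415, and replicate 3 lay above for 2208 and below for 2372. In 1270 probes both arrays passed 2-fold in the same direction and in 261 in opposite directions. Of the 393 calls, both arrays passed 2-fold in 295, replicate 3 alone in 68 and replicate 1 alone in 30. A fit without replicate 3 called 109 of the 393 probes and one without replicate 1 called 293 of them. The calls that replicate 3 alone carried past 2-fold were moderate in size: IGMT2, a methyltransferase gene of indole glucosinolates, read -0.41 and 0.17 in psy1r + PSY1, against -1.23, -1.33 and -1.51 in WT + PSY1, and CRF3, a cytokinin response factor gene, read -2.60 and -2.09 against -3.52, -3.44 and -3.48. The groups did not overlap for either gene, and the log2 fold changes were 1.24 and 1.14. AT2G21100, AT2G38255 and AT5G47530 were the other higher members of the 5 largest, at 1.2, 1.17 and 1.1. On the lower side OFP16, an ovate family repressor gene, read -2.66 and -3.58 in psy1r + PSY1, against -1.68, -1.77 and -1.74, with a log2 fold change of -1.39, followed by AT4G28025 and AT1G69523 at -1.39, AT4G28030 at -1.31 and AT4G16000 at -1.26. None of these 10 genes was called with the replicate block or without replicate 3.

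**Figure D2:**
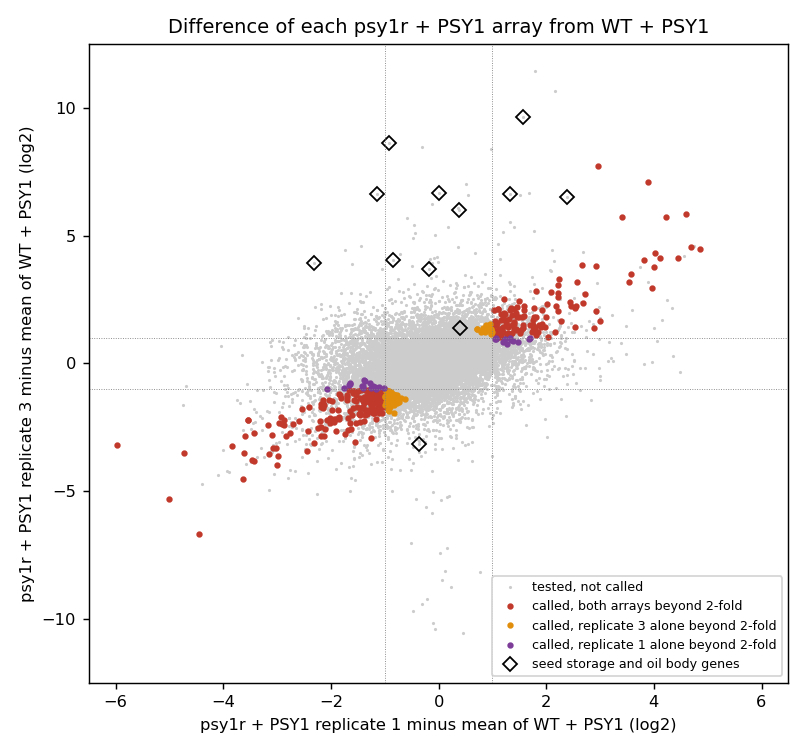
Difference of psy1r + PSY1 replicate 1 (horizontal axis) and replicate 3 (vertical axis) from the mean of WT + PSY1, in log2 units, for the 35051 tested probes, with dotted lines at 2-fold. Called probes (red, orange and purple) lie along the diagonal, while 11 of the 12 tested seed storage and oil body genes (diamonds) lie high on the vertical axis, with a median of 6.26 there and -0.084 on the horizontal axis.

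The seed storage and oil body list illustrates that split between the 2 arrays. Of its 15 genes 12 were tested, and 0 were called, although the median log2 fold change over those tested was 2.96. In replicate 3, 11 of the 12 were more than 2-fold above WT + PSY1, and in replicate 1 only 3 were above and 2 below. CRU3, a storage globulin gene, read -5.94 and 3.62 in psy1r + PSY1, against -5.74, -4.77 and -4.54 in WT + PSY1, so replicate 1 sat at or below the wild type and replicate 3 far above it. SESA1, a storage albumin gene, read -4.72 and -0.59 against -7.24, -7.31 and -6.77. Of the late embryogenesis abundant genes, which encode protective proteins of drying seeds, 12 of 13 were tested. Of these 1 was called, GEA6, or 8.33%, against 1.13% of all loci. Their median difference from WT + PSY1 was 0.87 in replicate 1, with 9 of 12 positive, and 3.40 in replicate 3, with 11 of 12 positive. EM1, the other Em gene, read -2.84 and 0.09 in psy1r + PSY1, against -3.95, -3.98 and -4.04 in WT + PSY1 (adjusted p = 0.0941). The median of this list was 1.63 in untreated psy1r against WT. Seed maturation regulators such as LEC1 and ABI3 had 0 calls of 7 and a median of -0.35.

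Most calls had the same sign without the peptide. In untreated seedlings, psy1r against WT, 333 of the 393 probes, or 84.7%, differed in the same direction, compared with 59.8% of all tested probes. In that comparison 109 of them also passed 2-fold in that direction and 86 were called. Of all tested probes 274, or 0.782%, were called there. Calls in the 2 comparisons are not independent, since both use the same spread of each probe from the shared fit. The median log2 fold change of the 155 higher probes was 1.55 with PSY1 and 0.46 without, and that of the 238 lower probes was -1.41 with PSY1 and -0.52 without. These pairs of medians are descriptions, since the probes were selected on the values with PSY1. Another 4 probes were called in the opposite direction without PSY1.

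The difference between the 2 genotype effects was called for 22 probes over the whole array, or 0.0628%, and 13 of these were among the 393. With the replicate block 3 of the 13 were also called, those of IRT1, MYB112 and the unannotated A_84_P726424. For IRT1 and A_84_P726424, psy1r + PSY1 was the only group well above background. They entered the test through that group alone, so passing it is no separate support, and the size of that difference is not measured. IRT1, the iron transporter of the root epidermis, read -3.68 and -3.35 in psy1r + PSY1 by this probe, against -7.81, -7.69 and -7.56 in WT + PSY1, at least 14.7-fold higher, and was not well above background on any of the 6 untreated arrays. The brighter IRT1 probe read -6.36 and -3.94 in psy1r + PSY1, against -5.94, -4.68 and -4.17, with overlapping groups and a log2 fold change of -0.22, so the 2 probes of this gene disagree. MYB112, a transcription factor gene, read -3.58 and -3.27 in psy1r + PSY1, against -5.14, -4.96 and -5.14 in WT + PSY1, and it was on the other side in untreated seedlings, at -4.66 to -4.29 in psy1r and -3.28 to -3.03 in WT.

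AT4G20970 crossed in the same way by both of its probes. Its brighter probe read -1.58 and -1.87 in psy1r + PSY1, against -4.11, -4.18 and -4.12 in WT + PSY1, but -2.99, -3.0 and -3.72 in untreated psy1r against -1.29, -1.45 and -0.72 in untreated WT. The genotype effect was 2.41 with PSY1 and -2.08 without, a difference of 4.49 ± 0.36 (adjusted p = 0.00582). By a probe that is not its brightest, AT3G62990 crossed likewise, with 1.96 with PSY1 and -1.39 without. Another of its called probes had 1.43 and -1.01, and the difference of that probe did not pass the test. AIG1, a gene induced in bacterial effector-triggered immunity, was lower with and without PSY1. It read -3.94 and -3.92 in psy1r + PSY1 against -2.48, -2.47 and -2.60 in WT + PSY1. Without the peptide AIG1 was lower by more, with a log2 fold change of -3.86. RLP22, a receptor-like protein gene, MLO12, whose family is known for powdery mildew susceptibility, and AT5G03610 were higher with PSY1 at 1.52, 1.72 and 1.37 and had -0.16, 0.55 and 0.26 without. For MLO12 and AT5G03610 these values are from dimmer probes, and their brightest probes were not called. The brightest MLO12 probe had 0.92 with PSY1 (adjusted p = 0.305 in limma) and 0.81 without, and that of AT5G03610 had 0.52 and 0.0074. PMR6, a pectate lyase-like gene, was lower with PSY1 by 1 of its 3 probes, at -3.62 and -3.50 against -2.19, -2.26 and -2.00, and had -0.081 without.

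**Figure D3:**
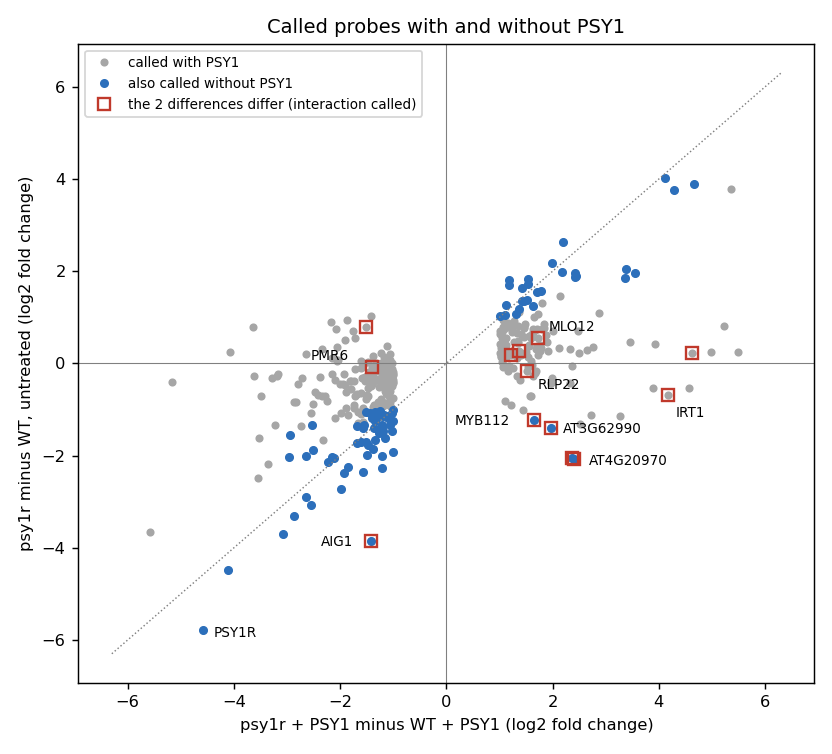
Log2 fold change of the 393 called probes with PSY1 (psy1r + PSY1 minus WT + PSY1, horizontal axis) and without it (psy1r minus WT untreated, vertical axis), with the dotted line marking equal values. Of these, 333 lie in the 2 quadrants of equal sign, probes also called without PSY1 are blue, and red squares mark the 13 probes whose 2 effects differed by the test, with AT4G20970 at 2.41 and -2.08.

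Of the 11 genes listed for sugar starvation and darkness, all of them tested, 4 were called lower and 0 higher. Over all tested loci, 149 of 21328 were called lower. The list was drawn up with earlier results of these data known. It includes QQS, one of the 10 largest lower signals above, so the count for this list is a description. The median log2 fold change was -1.29, or -0.82 in replicate 1 and -1.76 in replicate 3, and 10 of the 11 had a negative value. SEN1, a marker of dark-induced senescence, read 2.89 and 2.26 in psy1r + PSY1, against 4.24, 4.29 and 4.26 in WT + PSY1, 3.23-fold lower (adjusted p = 0.0261). BCAT-2, an enzyme of branched-chain amino acid breakdown, read -1.28 and -1.54 against 0.53, 0.57 and 0.61, 3.94-fold lower (adjusted p = 0.0216). BGAL4, a beta-galactosidase gene, read 0.069 and -0.59 against 1.41, 1.36 and 1.44, 3.17-fold lower, and QQS, described above, was the other call. For each of these genes both psy1r + PSY1 arrays lay below all WT + PSY1 arrays. With the replicate block QQS alone of the 4 was called, and without replicate 3 none was (adjusted p of 0.0689 to 0.15). ASN1, an asparagine synthetase gene of dark-treated leaves, had -1.38 without passing the test (adjusted p = 0.297), and DIN10, a dark-induced gene of sugar metabolism, had -1.29 by its brightest probe (adjusted p = 0.0645) and was called lower by another, at -1.35 (adjusted p = 0.00848). The untreated comparison gave a median of -1.36 for the same list, with 4 called lower.

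Of the genes that mobilise seed reserves, ICL, the isocitrate lyase of the glyoxylate cycle, was the only one called of 8, or 12.5%, against 1.13% of all loci. It read 1.40 and 1.73 in psy1r + PSY1, against -0.66, -0.62 and -0.55 in WT + PSY1, 4.52-fold higher (adjusted p = 0.0213), and 2 of its 3 probes were called. With the replicate block ICL lost its call (adjusted p = 0.0585 by this probe). Untreated psy1r was also higher, at 2.49, 2.48 and 1.38, against -0.042, -0.024 and 0.44 in WT. The fit without replicate 3 did not call ICL. MLS, malate synthase of the same cycle, had 1.04 (adjusted p = 0.106).

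**Figure D4:**
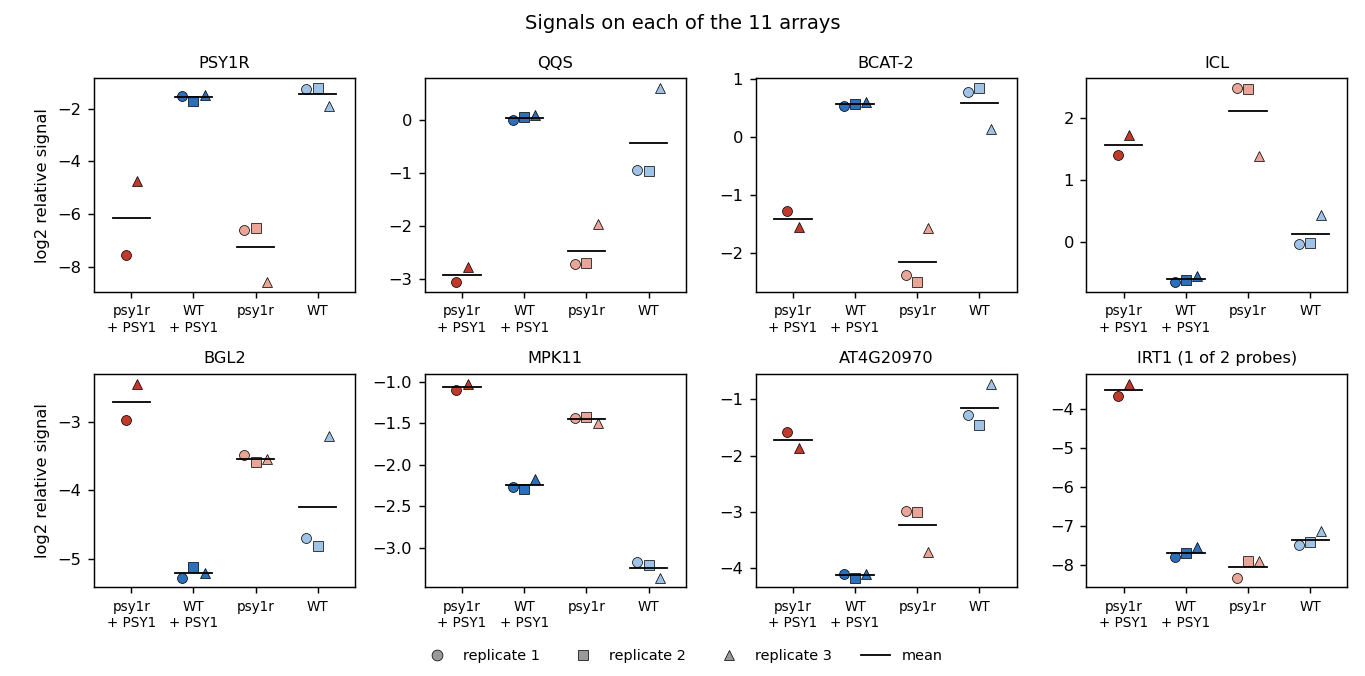
Relative signal (log2, vertical axes) of 8 genes on each of the 11 arrays, by group, with replicates by shape and a line at each group mean. QQS and BCAT-2 are low and ICL and MPK11 high in both psy1r groups, BGL2 and this IRT1 probe are on average highest in psy1r + PSY1, and AT4G20970 changes sides between treated and untreated seedlings.

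Lists of defence and hormone genes were counted by the brightest probe of each gene, against 1.13% of all loci called. Of 16 tested genes of salicylic acid and immunity, BGL2 was called higher and AIG1 lower, or 12.5%, and neither call was kept with the replicate block or without replicate 3. BGL2, the beta-glucanase also known as PR2, read -2.98 and -2.45 in psy1r + PSY1, against -5.26, -5.12 and -5.19 in WT + PSY1, 5.56-fold higher (adjusted p = 0.0268). PR1 had 0.81 with an adjusted p of 0.813. Of 25 jasmonate genes, 20 had a positive value with a median of 0.50, and 0 were called by their brightest probe. This list leaves out JMT, which was called lower, and LOX3 was called by dimmer probes, as given above. In replicate 1, 10 of the 25 lay more than 2-fold above WT + PSY1 and in replicate 3 none did. AOS, allene oxide synthase, had 0.97 (adjusted p = 0.142). The 17 auxin genes, the 13 tested cold and abscisic acid response genes and the 7 tested clade A protein phosphatases had 0 calls, with medians of -0.026, 0.51 and -0.080. COR15A, a cold-regulated chloroplast protein gene, came nearest among them at 1.42 (adjusted p = 0.0663).

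The iron deficiency list differed between the 2 psy1r + PSY1 arrays. Over its 21 tested genes of 23 the median was -0.85 in replicate 1 and 0.45 in replicate 3, and 9 genes in replicate 1 but 1 in replicate 3 were more than 2-fold below WT + PSY1. FRU, the bHLH regulator of iron uptake also called FIT, had -1.37 in replicate 1 and -0.70 in replicate 3 (adjusted p = 0.0693). COPT2, a copper transporter that iron deficiency also regulates, was the only call by the brightest probe, or 4.76%, against 1.13% of all loci. It read 0.58 and 0.23 in psy1r + PSY1, against -0.55, -0.66 and -0.60 in WT + PSY1, 2.02-fold higher (adjusted p = 0.0148), and was 1.03 higher on the log2 scale in untreated psy1r. With the replicate block COPT2 was not called.

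Genes picked for quantitative PCR had been chosen on these samples, so their direction is not independent evidence. Of 6 such genes named in the study's main text, 4 were called lower and 1 higher, or 83.3%, against 1.13% of all loci. The study's primer list holds further genes that were not counted. Among these, SCRL3 was called lower, as given above, and AT1G10585 was called higher at 2.51 and 2.71 by separate probes. WVD2, a microtubule-associated protein gene of cell expansion, read -4.18 and -4.31 in psy1r + PSY1, against -2.89, -1.97 and -1.64 in WT + PSY1, 4.24-fold lower (adjusted p = 0.0316), and untreated psy1r and WT were low as well, at -4.22 to -4.0 and -5.46 to -4.52. ML2, an RNA-binding protein gene, read -0.10 and -0.45 against 1.02, 1.02 and 0.96, 2.42-fold lower, and CRL, a plastid division gene, read 1.86 and 1.61 against 2.75, 2.85 and 2.80, 2.09-fold lower. AT2G32785, a RALF-like peptide gene, was not well above background in psy1r + PSY1 and on 1 of 3 WT + PSY1 arrays, so no fold is given (adjusted p = 0.0441). MPK11, given above, was the higher call, and 5PTASE11, a phosphoinositide phosphatase gene, had -0.83, short of 2-fold (adjusted p = 0.0405). MPK11 alone of these 6 kept its call with the replicate block, while SCRL3, outside the 6, was also called with it.

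Large gene families were also counted by the brightest probe of each gene, beside the 1.13% of all loci called. Expansins, which loosen the wall, had 0 calls of 25 tested and a median of 0.15, and the XTH enzymes, which remodel xyloglucan, had 0 of 27 and -0.17. The SAUR genes listed under that symbol had 0 calls of 13, a list that leaves out AT2G37030, called lower above. Of 170 cytochrome P450 genes 5 were called, or 2.94%, with CYP82C2, CYP96A4 and CYP82G1 higher and CYP96A9 and CYP71B4 lower. CYP96A4 read -1.38 and -1.93 in psy1r + PSY1, against -3.36, -3.36 and -3.37 in WT + PSY1, 3.27-fold higher, and CYP82G1, an enzyme of herbivore-induced terpene release, was 3.19-fold higher. Of 25 cysteine-rich receptor-like kinases CRK41 was higher, at 1.12, and CRK4 lower, at -1.93, while CRK6 was called higher by a dimmer probe, at 2.20 (adjusted p = 0.0252). WRKY12 was the only call of 61 WRKY genes by the brightest probe, at -1.08, and WRKY6 was called by a dimmer one. Of 48 tested defensin-like genes 3 were called, or 6.25%, all lower: SCRL3, PDF1.5 and SCRL17, which read -6.43 and -6.11 in psy1r + PSY1, against -3.47, -3.12 and -4.59 in WT + PSY1. A single heat shock gene of 20 was called, ATHSP22.0, at -3.84 and -3.10 in psy1r + PSY1 against -0.69, -0.64 and -0.69 in WT + PSY1, and it read -0.52, -0.51 and -2.48 in untreated psy1r. Over all lists and families 29 loci were called by their brightest probe, of which 6 were also called with the replicate block and 8 without replicate 3.

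**Figure D5:**
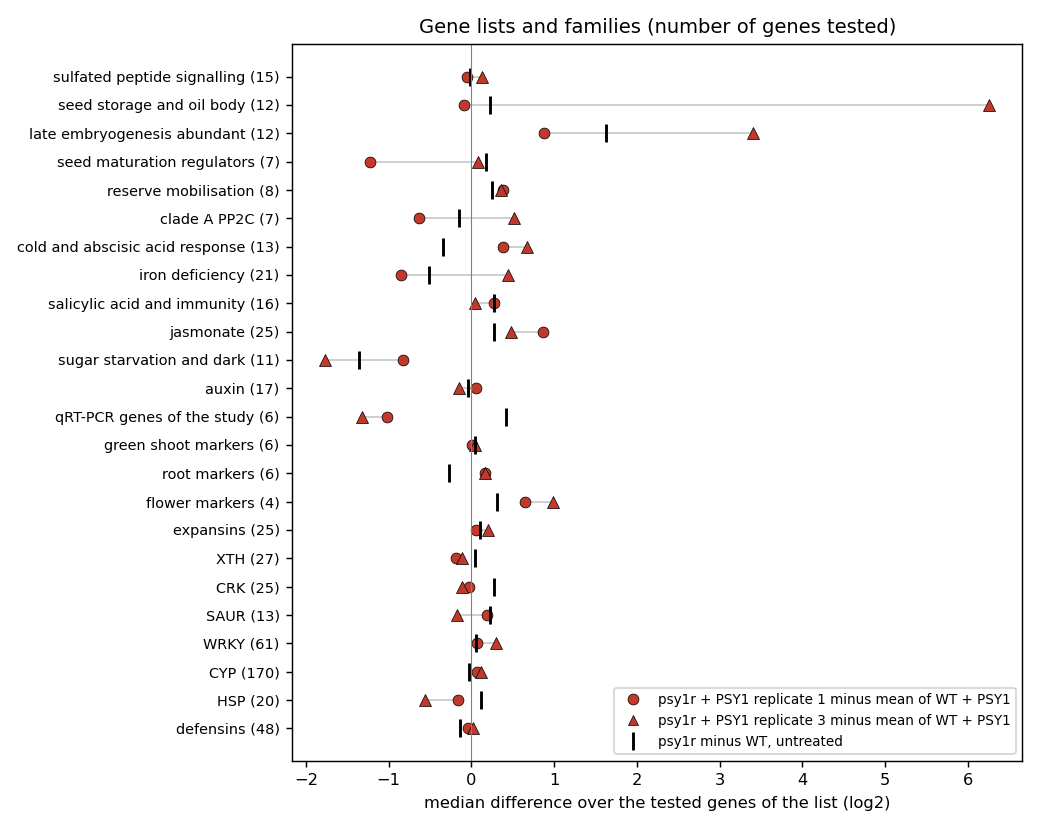
Median log2 difference over the tested genes of each list (number in brackets), with psy1r + PSY1 replicates 1 (circle) and 3 (triangle) each set against the mean of WT + PSY1 and the untreated psy1r minus WT difference as a bar. Sugar starvation genes lie below 0 in all 3 measures at -0.82, -1.76 and -1.36, and seed storage genes reach 6.26 in replicate 3 alone.

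Shoot and root markers were present on the arrays, as the whole-seedling label says. The median relative signal of 6 green shoot markers was 7.72 and 7.85 in psy1r + PSY1 and 7.58 to 7.87 in WT + PSY1, all of them well above background, with 0 calls. The median of 6 root markers was -1.59 and -1.66 in psy1r + PSY1 and -1.25 to -1.18 in WT + PSY1, also with 0 calls, while the median of their log2 fold changes was 0.20, with 4 of 6 positive. Of 4 genes that specify floral organs, SEP3 was called higher and PI lower, or 50%, against 1.13% of all loci. SEP3 read 1.48 and 2.03 in psy1r + PSY1, against 0.30, 0.35 and 0.32 in WT + PSY1, and PI read -5.74 and -4.93 against -4.05, -4.0 and -3.91, and both had the same sign in untreated seedlings, at 1.63 and -1.21. In whole seedlings, fewer cells of a type and less RNA per cell cannot be told apart.

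Genes close to PSY1R on chromosome 1 were looked at separately. Within 1 Mb on either side, 8 of 485 tested loci, or 1.65%, were called, against 1.12% of all other loci. FAB1C and its neighbour AT1G71000 were among the 5 lower ones. AT1G71000 read -3.69 and -4.51 in psy1r + PSY1, against -1.49, -1.38 and -1.26 in WT + PSY1, but its untreated arrays overlapped, at -2.53 to -1.17 in psy1r and -1.44 to -1.22 in WT. AT1G70985, TAF2 and AT1G74055 were the other lower loci, at -1.40, -1.02 and -1.09. DR4, a drought-repressed gene, read 3.85 and 4.38 in psy1r + PSY1, against 2.46, 2.43 and 2.54, 3.12-fold higher, with MYB122 and AT1G73700 at 1.24 and 1.05. FAB1C was the only one of the 8 also called in untreated seedlings, and the only one called without replicate 3. With the replicate block FAB1C, AT1G71000 and AT1G74055 were called. Over the 5 chromosomes the share of called loci was 1.05 to 1.36%.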

How the data were processed

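Transcripts of whole Arabidopsis seedlings were measured on one-colour (Cy3) Agilent Arabidopsis V4 arrays, scanned and extracted by the authors with Agilent Feature Extraction 10.7.3.1. The deposited files hold spot intensity values that the software had already corrected for background, with flags (unit other) for spots well above background, saturated or outlying. A deposited table of processed log2 values correlated with the scaled values used here at 0.99987 on the least similar array. It was used as an alternative. The study's methods name an RMA procedure in GeneSpring. Steps like it were run in limma as an alternative, with normexp background correction, quantile normalisation and a mean over spots, but not the GeneSpring procedure itself.

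Here, spots of the same probe were averaged, control spots and outlier flags were left out, and log2 processed signals were divided by the 75th percentile of each array by subtraction on the log scale. Of 43603 probes, 35051 that were well above background on 2 or more of the 5 arrays compared were tested with limma 3.58.1 in R 4.3.3, in one fit of 11 arrays in 4 groups, with Benjamini-Hochberg adjustment over all tested probes, an adjusted p of 0.05 and a 2-fold limit. Depth does not apply to arrays, and their number limits the precision. Probes were named through RefSeq accessions of TAIR10.1, and 34358 of 43603 matched a locus, so symbols are those of that assembly. The build of the array design is not named in the sources used here, so no coordinates are given. A locus is represented by its brightest probe.

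The genes named by rule begin with PSY1R, PSY1 and the 10 largest called loci in each direction that both psy1r + PSY1 arrays share. They include the 5 largest in each direction for which replicate 1 was within 2-fold of WT + PSY1. They also include up to 4 called members of each gene list, or 2 where none was called, and the called loci within 1 Mb of PSY1R. Named outside this rule were further uncalled list members, genes of the set of 39 probes, genes whose genotype effects differed and genes of the study's primer list. The arrays, genes, lists and tests were chosen with earlier results of these data known. A run on simulated data with known changes served as a check of the code of the fit and is not used as support here. Same-numbered arrays share a slide, and the deviations of treated pairs correlated at 0.32 and 0.11, so a fit with the slide as a replicate block was run and its effect on the named calls is given. A promoter motif search was not run, since no sequences were at hand.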

Additional observations from a re-analysis of the deposited data

Results flagged for a closer look

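The genotype effect differed between PSY1-treated and untreated seedlings, by limma's test of that difference, for 13 of the called probes. The values below are the log2 genotype effect with PSY1 minus that without, and adjusted p-values were taken over all 35051 probes tested, of which 22 passed. In the positive direction the difference was 4.87 for the IRT1 probe A_84_P764469, and 4.49 and 4.41 for both probes of AT4G20970. It was 4.38 for the unannotated probe A_84_P726424, and 3.36 for AT3G62990 by a probe that is not its brightest. It was 2.88 for MYB112, 2.44 for AIG1, 1.68 for RLP22 and 1.04 for the unannotated probe A_84_P834156. By their dimmer probes it was 1.16 for MLO12 and 1.11 for AT5G03610. In the negative direction it was -1.33 for PMR6 and -2.31 for the unannotated probe A_84_P850023, which was not well above background in psy1r + PSY1 and read -6.93 and -6.55 there, against -5.23, -5.31 and -5.15 in WT + PSY1. For IRT1 and A_84_P726424 psy1r + PSY1 was the only group well above background, and they entered the test through that group alone. Their 4.87 and 4.38 are fitted values and not measured sizes. The comparisons with and without PSY1 share no arrays, but they share the fit and its estimate of the spread. With the slide as a replicate block, the differences of IRT1, MYB112 and A_84_P726424 also passed, and with close arrays averaged none of the 22 did. Single outlying arrays were not tested for, since no group holds 4 arrays.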

How the results depend on the processing

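Under every alternative run, the 66 genes and probes checked kept their direction, though not every gene named above was among them. Apart from PSY1, all of them had been called, with groups that did not overlap. Leaving out 1 array could therefore not change their sign, so the kept direction is no separate support. Of 1818 values, 1256 kept the call or, for PSY1, stayed without one, 562 lost it and 0 changed sign. The number of probes called between psy1r + PSY1 and WT + PSY1, 393, was 825 with RMA steps, 143 with the slide as a replicate block, 699 in a fit of the 5 arrays alone, 132 with array weights by group, 248 by the methods' t-test after Benjamini-Hochberg and 1351 before it, 1708 by unadjusted p, 695 without the fold limit and 50 to 1053 leaving out 1 array. In untreated seedlings, 274 calls became 174 with normexp, 1901 with array weights, 10 and 734 by the methods' t-test after and before adjustment, 1023 by unadjusted p, 534 without the fold limit and 84 to 955 leaving out 1 array. The 22 calls of the difference between both genotype effects became 54 with normexp, 9 without the filter on dim probes, 5 with the replicate block, 55 with array weights, 6 with weights by group, 1130 by unadjusted p and 4 to 776 leaving out 1 array. In alternatives chosen after seeing the data, averaging close arrays gave 0 calls in each comparison, and leaving out slide 3 gave 1995, 1826 and 862. PSY1R lost its call with the replicate block (-4.45), and at -4.58 in the 5 arrays alone, by the methods' t-test and with close arrays averaged. Its log2 fold change was -5.98 to -3.19 leaving out 1 array, and 7 of these 11 fits did not call it. The cause of these shifts was not tested. A fit with 1 psy1r + PSY1 array assumes that it varies like the other groups, and signals near background limit what the dimmest probes can show.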
